A study of Arabidopsis thaliana with 8 samples.

Results

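The UDP-glycosyltransferase genes of Arabidopsis thaliana, those with a symbol that starts with UGT and a number, were described in seedlings of 4 genotypes that carry or lack mutations in Polycomb genes. A gene was included where a probe set of the Affymetrix ATH1 array was annotated with that gene alone and had a signal above 10 on at least 2 of the 8 arrays. These conditions gave 38 genes of the 47 UGT genes annotated in this way, out of 13350 genes with 1 annotated symbol. Each of the 38 had 1 probe set, so no choice between probe sets was needed. The other 9 genes, UGT71B6, UGT73C1, UGT73C2, UGT73D1, UGT76E1, UGT76E2, UGT78D3, UGT84B1 and UGT84B2, did not lie above 10 on 2 arrays and were not tested. Of the 38, 28 lay above 10 on all 8 arrays.

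The clf-28 swn-7 double mutant carried T-DNA insertion alleles of both CURLY LEAF (CLF) and SWINGER (SWN) and was grown on plates for 12 days. The clf-28 and swn-7 single mutants each carried 1 of these insertions and, like the wild type (Columbia, Col-0), were grown for 10 days. All 4 groups were bulked whole seedlings from tissue culture, kept cold for 3 days as seeds and grown at 23 degrees Celsius on average and 70% humidity. The labels give each growth stage 1.03, and each had 2 arrays. Because only the double mutant was 12 days old, its genotype and its age cannot be told apart in any comparison that includes it. Values of CLF and SWN themselves were not analysed here, so the genotype labels have no check from the mutated genes.

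UGT enzymes move a sugar from a UDP-sugar onto a small molecule, such as a hormone, a flavonoid, a lignin precursor, a defence compound or a foreign chemical. The added sugar usually makes the molecule more soluble and changes its activity, storage or transport. The number after UGT groups genes by sequence, and members of 1 group often act on related acceptors. CLF and SWN are related histone methyltransferases of the Polycomb repressive complex, which keeps many developmental genes silent in plant tissues.

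Signals are given as deposited, on a linear scale, in the order replicate 1 and replicate 2. Differences are log2 values of signals raised to a floor of 10, tested with limma across 17332 probe sets, with Benjamini-Hochberg adjusted p-values and a threshold of 0.05. A probe set past the threshold is called higher or lower. Errors of log2 differences are standard errors (SE) from that fit. A fold against a genotype with an array at the floor is a lower bound. Signals of different genes come from different probes and have no order between genes.

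Between the arrays of a genotype, the log2 signals of all probe sets tested correlated at 0.974 in clf-28 swn-7, 0.986 in clf-28, 0.975 in swn-7 and 0.958 in wild type. The wild-type arrays lay farther apart on the UGT genes as well. At least 2-fold differences between the 2 arrays were found for 1 UGT gene in each of clf-28 swn-7, clf-28 and swn-7, and for 5 in wild type, namely UGT72B3, UGT72E2, UGT74B1, UGT76E12 and UGT78D1. The double mutant also differed in tissue markers. All 4 measured genes of the green tissue list of 13 were lower in it, with summed signals of 762 to 1173 in clf-28 swn-7, against 13234 to 13779 in wild type. Both measured genes of the seed and embryo list of 11 were higher, with summed signals of 5597 to 6699 in clf-28 swn-7, against 32.6 to 83.4 in wild type. Of 3 measured root genes of 5 listed, EXPA7 and EXPA18 were lower and PYK10 was not called, with sums of 4063 to 4559 in clf-28 swn-7 and 3362 to 3757 in wild type. PYK10 alone made up 4054 to 4545 of the sum in clf-28 swn-7. No measured green tissue marker was at 0 in the double mutant. The part of these tissue markers in the UGT differences was not tested, and in whole seedlings fewer cells of a type and less RNA per cell cannot be told apart.

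The first comparison set clf-28 swn-7 against wild type. UGT genes moved in both directions: 10 were higher and 6 were lower, which is 42.1% of the 38. The 10 include UGT71B8, which passed the filter on low signals through the double-mutant arrays alone. The background was 46.7% of all probe sets tested called in this comparison, with 25.2% higher and 21.5% lower, so the UGT share lay near the background. The median log2 difference was 0.11 for the UGT genes and 0.11 for all probe sets. The median absolute log2 difference was 0.64 for the UGT genes and 0.60 for all, and 11 of 38 UGT genes differed by at least 2-fold, beside 5149 of 17332 probe sets. On the floored scale the values ran from -1.73 for UGT88A1 to 3.58 for UGT76E12 and 3.79 for UGT73B4. The floor limits such an order: UGT76E12 has a wild-type array at the floor and UGT84A1 both double-mutant arrays, and with no floor their log2 differences were 4.39 and -4.82. Leaving out 1 array at a time gave 12 to 16 calls, and a fit of the double-mutant and wild-type arrays alone gave 9, where 34.0% of all probe sets were called. The share of all probe sets called also fell in each fit that left out 1 array. Apart from UGT71B8, the calls that ended under such omissions are named with each gene.

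**Figure D1:**
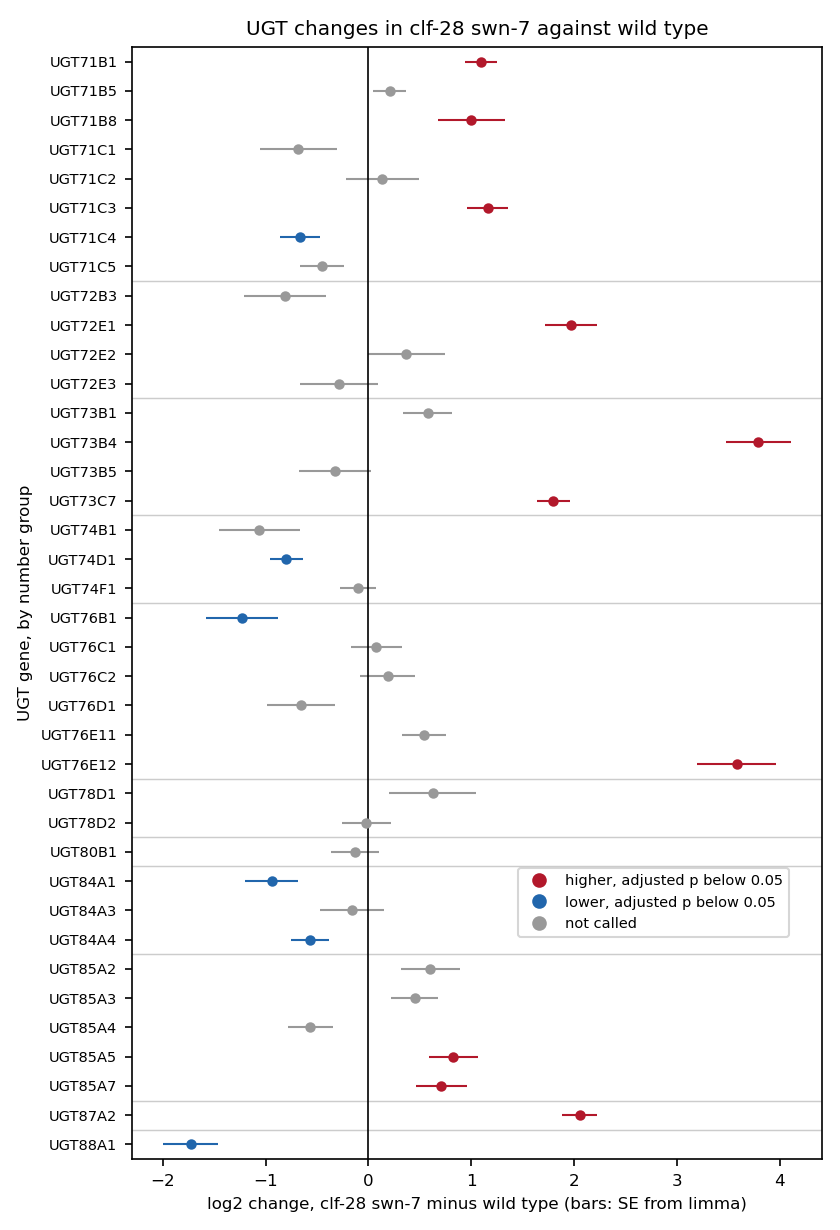
Each point is 1 UGT gene, with its log2 difference of clf-28 swn-7 minus wild type on the x axis and its SE from limma as the bar, ordered by UGT number down the y axis. The 10 red genes, UGT71B8 included, and 6 blue genes passed an adjusted p of 0.05, and on this floored scale UGT73B4 and UGT76E12 lie farthest to the right.

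Counted by number group, the directions of the calls are given as a description, because groups of this size allow no test. UGT73 had 2 of its 4 genes higher and none lower, UGT85 had 2 of 5 higher and none lower, and UGT71 had 3 of 8 higher, UGT71B8 among them, and 1 lower. UGT84 had 2 of 3 lower and UGT74 had 1 of 3 lower, with none higher in either. Each call in UGT84 and UGT85 ended in some fit that left out 1 array. UGT72 had 1 of 4 higher, and UGT76 had 1 of 6 higher and 1 lower. Neither of the 2 UGT78 genes nor UGT80B1 was called, UGT87A2 was higher and UGT88A1 was lower. The group medians of the log2 difference ran from -0.80 in UGT74 and -0.57 in UGT84 to 0.60 in UGT85 and 1.19 in UGT73, among groups of at least 3 genes.

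**Figure D2:**
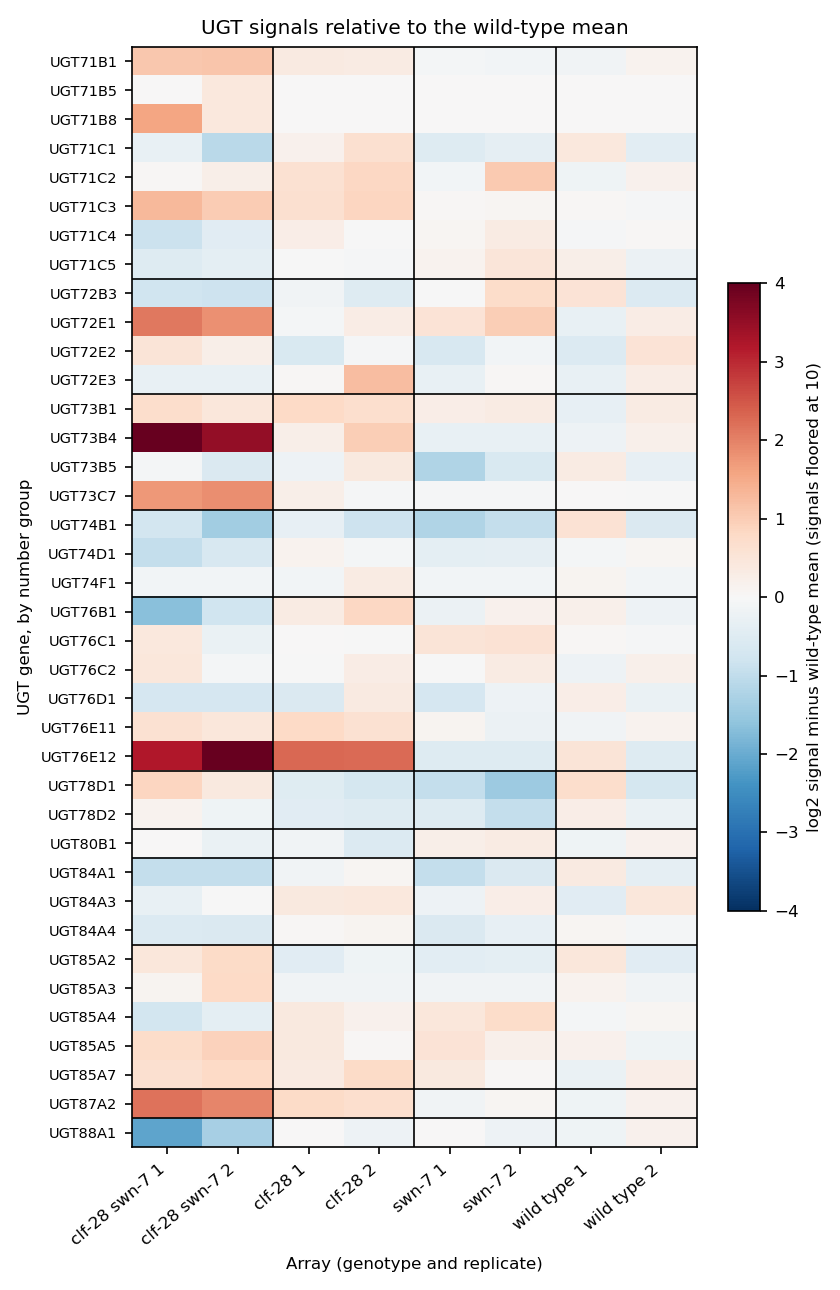
Rows are the 38 UGT genes by number, columns the 8 arrays, and colour the log2 signal (floored at 10) minus the wild-type mean of that gene. The strongest rows of the clf-28 swn-7 columns are UGT73B4 and UGT76E12, and UGT76E12 is also above the wild-type mean in both clf-28 columns.

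In the UGT73 group, UGT73B4 and UGT73C7 rose and the other genes were not called. UGT73B4 encodes an enzyme that glucosylates foreign chemicals and is known as a stress-responsive gene. Its signals were 370.3 and 253 in clf-28 swn-7, 26.0 and 43.3 in clf-28, 17.8 and 18.2 in swn-7, and 19.2 and 25.4 in wild type. Both double-mutant arrays were far above the 6 others, which ran from 17.8 to 43.3 with clf-28 at the top and swn-7 at the bottom. The level in clf-28 swn-7 was 13.9-fold that in wild type (log2 3.79, SE 0.31, limma adjusted p = 8.62e-05), and the gene was also higher than in clf-28 (log2 3.19) and in swn-7 (log2 4.09).

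UGT73C7, whose product glucosylates hydroxycinnamic acids and related phenylpropanoids, was also highest in clf-28 swn-7, with clf-28 overlapping wild type. Its signals were 34.6 and 37.4 in clf-28 swn-7, 12.2 and 9.78 in clf-28, 7.78 and 5.28 in swn-7, and 10.3 and 10.3 in wild type. Only clf-28 swn-7 lay clearly above the floor. The rise against wild type was 3.48-fold (log2 1.80, SE 0.16, limma adjusted p = 1.25e-04), with wild type itself just above the floor.

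Of the remaining genes, UGT73B5, which lies next to UGT73B4 in the gene order and is likewise stress-responsive, had 28.6 and 20.2 in clf-28 swn-7, against 37.5 and 24.1 in wild type. Those ranges overlapped, and the log2 difference was -0.33 (SE 0.35, limma adjusted p = 0.476). UGT73B1 had 113 and 97.2 in clf-28 swn-7, against 55.9 and 88.8 in wild type (log2 0.58, limma adjusted p = 0.0799). Without replicate 2 of wild type, UGT73B1 was called higher (log2 0.91, adjusted p = 0.0108). The probe set that UGT73B2 and UGT73B3 share, which the single-gene rule left out, gave a log2 difference of 0.19 (adjusted p = 0.630).

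In the UGT76 group, whose characterised members act on cytokinins, salicylic acid and other small acids, 1 gene rose strongly and 1 fell. UGT76E12 had 132 and 226 in clf-28 swn-7, 70.1 and 68.8 in clf-28, 0.333 and 5.23 in swn-7, and 20.8 and 3.26 in wild type. Both clf-28 arrays were above every swn-7 and wild-type array, and the double mutant was above clf-28. In clf-28 swn-7 the level was at least 12.0-fold that in wild type (log2 3.58, SE 0.38, limma adjusted p = 2.86e-04) and at least 17.3-fold that in swn-7. Against clf-28 it was 2.49-fold higher (adjusted p = 0.0266). That last call ended without either double-mutant array or either clf-28 array, with adjusted p between 0.0581 and 0.185.

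UGT76E11, separated from UGT76E12 by 1 gene, had 71.3 and 64.0 in clf-28 swn-7, 81.7 and 71.1 in clf-28, and 41.8 and 51.8 in wild type. Its double-mutant and clf-28 arrays were above the wild-type arrays, but the difference of the double mutant missed the threshold (log2 0.54, SE 0.21, limma adjusted p = 0.0748).

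UGT76B1, which glucosylates the defence signals salicylic acid, isoleucic acid and N-hydroxypipecolic acid, was the lowered gene of the group. Its signals were 20.4 and 38.0 in clf-28 swn-7, 81.2 and 117 in clf-28, 54.9 and 74.2 in swn-7, and 75.7 and 56.3 in wild type. Both double-mutant arrays were below all others, and the level was 2.35-fold lower than in wild type (log2 -1.23, SE 0.35, limma adjusted p = 0.0242). The call ended without replicate 1 of clf-28 swn-7 (log2 -0.78, adjusted p = 0.170) and without replicate 1 of wild type (log2 -1.02, adjusted p = 0.119).

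The other 3 genes of the group were not called. UGT76C1 and UGT76C2, which attach glucose to nitrogen atoms of cytokinins, had log2 differences of 0.08 (adjusted p = 0.821) and 0.19 (adjusted p = 0.594). UGT76C1 signals ran from 32.6 to 58.9 and UGT76C2 signals from 41.8 to 65.4 over the 8 arrays. UGT76D1, known for dihydroxybenzoic acids, had 3.39 and 5.46 in clf-28 swn-7, against 19.1 and 13.0 in wild type. Those arrays did not overlap, but the difference on the floored scale was -0.66 (SE 0.33, limma adjusted p = 0.143). With a floor of 5 in place of 10, UGT76D1 was called lower (log2 -1.59, adjusted p = 0.0300).

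**Figure D3:**
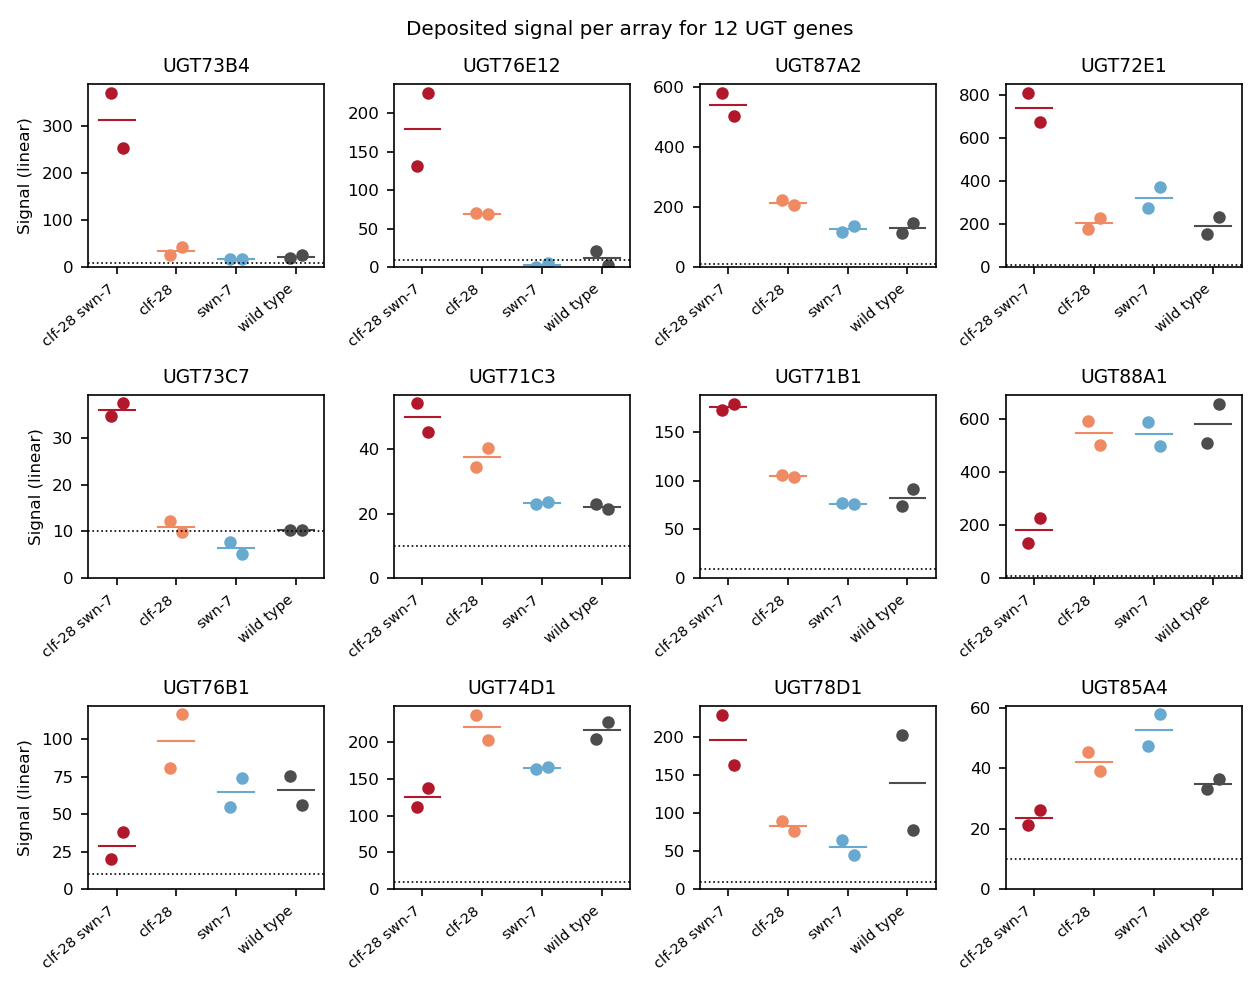
Points are the deposited linear signals of the 2 arrays of each genotype (x axis) for 12 UGT genes, short lines the genotype means and the dotted line the floor of 10. In the top row and for UGT73C7, UGT71C3 and UGT71B1 both clf-28 swn-7 points lie above all others, and for UGT88A1, UGT76B1, UGT74D1 and UGT85A4 below all others.

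UGT87A2 and UGT88A1, the only genes measured in their number groups, moved in opposite directions. UGT87A2, whose product promotes flowering, had 579.9 and 503 in clf-28 swn-7, 223 and 208 in clf-28, 119 and 138 in swn-7, and 114 and 147 in wild type. The highest signals were in clf-28 swn-7, and the clf-28 arrays lay above all swn-7 and wild-type arrays. The rise against wild type was 4.16-fold (log2 2.06, SE 0.17, limma adjusted p = 8.78e-05). The log2 difference was 1.33 against clf-28 and 2.08 against swn-7, both called.

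UGT88A1, an enzyme that accepts flavonoids in vitro, had 133 and 228 in clf-28 swn-7, 589.6 and 501 in clf-28, 589.5 and 497 in swn-7, and 509 and 655 in wild type. The 6 single-mutant and wild-type arrays formed 1 range, and both double-mutant arrays were below it. The level was 3.31-fold lower than in wild type (log2 -1.73, SE 0.26, limma adjusted p = 0.00157).

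The UGT72 group contains the enzymes that glucosylate the alcohol and aldehyde precursors of lignin. In it UGT72E1 was called higher than in wild type, and its relatives were not called against wild type. UGT72E1 had 811 and 675 in clf-28 swn-7, 179.7 and 229.8 in clf-28, 277 and 372 in swn-7, and 154 and 232 in wild type. Both clf-28 swn-7 arrays were above all others, and both swn-7 arrays were above both wild-type arrays. The rise against wild type was 3.91-fold (log2 1.97, SE 0.25, limma adjusted p = 6.59e-04). Against swn-7 it was smaller, with a log2 difference of 1.20 (adjusted p = 0.00638), and that call ended without replicate 1 of clf-28 swn-7 (adjusted p = 0.0888).

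UGT72E2, a coniferyl and sinapyl alcohol glucosyltransferase, had 165 and 136 in clf-28 swn-7, against 80.1 and 168 in wild type (log2 0.37, limma adjusted p = 0.446). Its clf-28 signals were 76.8 and 113 and its swn-7 signals 75.2 and 107. The double-mutant arrays lay above these, without a call (log2 0.68, adjusted p = 0.173 against clf-28, and log2 0.74, adjusted p = 0.143 against swn-7). UGT72E3, with a similar activity, was at or below the floor on both double-mutant arrays, at 5.69 and 8.48, against 4.19 and 14.8 in wild type (log2 -0.28, adjusted p = 0.566). For both genes the double-mutant range overlapped the wild-type range. UGT72B3 had 18.5 and 18.0 in clf-28 swn-7, 32.0 and 53.3 in swn-7, and 47.0 and 21.9 in wild type. It was lower than in swn-7 (log2 -1.18, limma adjusted p = 0.0441) but not called against wild type (log2 -0.81, adjusted p = 0.131). The call against swn-7 was absent from 5 of 8 fits that each left out 1 array, with adjusted p up to 0.228, and without replicate 2 of wild type the gene was called lower than in wild type (adjusted p = 0.0253). GT72B1, listed by RefSeq with the synonym UGT72B1 and known for glucosylating chlorinated pollutants, was outside the symbol rule and had a log2 difference of -0.85 (SE 0.31, adjusted p = 0.0592).

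The UGT71 group, which includes abscisic acid glucosyltransferases, held UGT71B1 and UGT71C3 as raised genes measured in every genotype and UGT71C4 as the lowered gene. UGT71B1 had 173 and 179 in clf-28 swn-7, 106 and 104 in clf-28, 77.2 and 75.6 in swn-7, and 74.1 and 90.9 in wild type. The genotypes fell into 3 levels, with the double mutant first, clf-28 next and swn-7 overlapping wild type. The rise against wild type was 2.14-fold (log2 1.097, SE 0.16, limma adjusted p = 0.00116).

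UGT71C3 had 54.3 and 45.3 in clf-28 swn-7, 34.5 and 40.3 in clf-28, 23.0 and 23.5 in swn-7, and 22.9 and 21.5 in wild type. The highest signals were in clf-28 swn-7 and the next in clf-28, and both swn-7 arrays were just above both wild-type arrays. The double mutant was 2.24-fold above wild type (log2 1.16, SE 0.20, limma adjusted p = 0.00274) and above swn-7 (log2 1.09), but the log2 difference of 0.41 against clf-28 missed the threshold (adjusted p = 0.133).

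UGT71B8, an abscisic acid glucosyltransferase, was above 10 on the double-mutant arrays alone, at 29.98 and 13.4, with 0.660 to 5.57 on the other 6 arrays. It passed the filter on low signals through the double-mutant arrays alone, so its higher call against each other genotype carries no weight, and its signals are given as a description. UGT71B5 was likewise above 10 on the double-mutant arrays alone, at 10.03 and 13.3, against 1.56 and 2.99 in wild type. It passed the filter in the same way, and its signals too are a description.

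UGT71C4 was the lowered gene, although it lies next to UGT71C3 in the gene order. Its signals were 68.0 and 89.3 in clf-28 swn-7, 149 and 123 in clf-28, 132 and 155 in swn-7, and 119.9 and 127 in wild type. The double-mutant arrays were below the 6 others, and the level was 1.58-fold lower than in wild type (log2 -0.66, SE 0.19, limma adjusted p = 0.0254). The call ended without replicate 1 of clf-28 swn-7 (log2 -0.47, adjusted p = 0.123), without replicate 1 of wild type (adjusted p = 0.0612) and without replicate 2 of wild type (adjusted p = 0.0833).

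The other 3 genes of the UGT71 group were not called against wild type. UGT71C5, an abscisic acid glucosyltransferase, had 60.9 and 66.3 in clf-28 swn-7, 94.9 and 121 in swn-7, and 102 and 74.2 in wild type. Its double-mutant arrays were the lowest, with a log2 difference of -0.45 from wild type (SE 0.21, limma adjusted p = 0.117) and a called one of -0.75 from swn-7 (adjusted p = 0.0227). Without replicate 2 of wild type, UGT71C5 was called lower than wild type (adjusted p = 0.0420), and the call against swn-7 ended without either double-mutant array or replicate 2 of swn-7 (adjusted p between 0.0780 and 0.131). UGT71C1 had 26.7 and 15.6 in clf-28 swn-7, 36.7 and 51.4 in clf-28, and 44.3 and 24.2 in wild type, and UGT71C2 ran from 11.2 to 26.0 over the 8 arrays. UGT71C1 was called only against clf-28 (log2 -1.09, adjusted p = 0.0482), a call that ended in 6 of 8 fits that each left out 1 array (adjusted p up to 0.277).

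In the UGT85 group, which has a cyanohydrin glucosyltransferase as its known member in sorghum, UGT85A7, UGT85A2, UGT85A5 and UGT85A3 lie consecutively in the gene order and all had positive log2 differences from wild type. UGT85A5 had 48.1 and 54.1 in clf-28 swn-7, against 32.7 and 25.3 in wild type. The arrays did not overlap, and the gene was 1.77-fold higher (log2 0.83, SE 0.24, limma adjusted p = 0.0258). The call ended without replicate 1 or 2 of clf-28 swn-7 (adjusted p = 0.0773 and 0.110) and without replicate 2 of wild type (adjusted p = 0.105). In the single mutants UGT85A5 had 37.9 and 30.0 (clf-28) and 42.0 and 33.3 (swn-7). The double mutant was not called against either (limma adjusted p = 0.0794 and 0.167). UGT85A7 had 18.8 and 20.7 in clf-28 swn-7, 15.6 and 20.4 in clf-28, 15.9 and 12.5 in swn-7, and 9.12 and 14.5 in wild type. The difference from wild type was at least 1.64-fold, with log2 0.71 and SE 0.25 (limma adjusted p = 0.0475). The double mutant overlapped clf-28 and was not called against clf-28 or swn-7 (adjusted p = 0.658 and 0.147). UGT85A7 was called in 1 of 8 fits that each left out 1 array, that without replicate 2 of wild type, with adjusted p up to 0.216 in the others.

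UGT85A2 and UGT85A3 were not called. UGT85A2 had 221 and 275 in clf-28 swn-7, against 222 and 119 in wild type (log2 0.60, SE 0.29, limma adjusted p = 0.123), and the ranges overlapped through replicate 1 of wild type. Without that array UGT85A2 was called higher (log2 1.06, adjusted p = 0.00941). UGT85A3 had 12.0 and 19.3 in clf-28 swn-7, against 12.4 and 7.66 in wild type (log2 0.45, adjusted p = 0.152), and was called higher without replicate 1 of clf-28 swn-7 (adjusted p = 0.0188). UGT85A4, the fifth gene of the group, went the other way. It had 21.1 and 26.3 in clf-28 swn-7, 45.3 and 39.0 in clf-28, 47.5 and 58.0 in swn-7, and 33.3 and 36.5 in wild type. The double mutant was lowest and the swn-7 arrays highest, with log2 differences of -0.56 from wild type (SE 0.22, limma adjusted p = 0.0700), -0.83 from clf-28 (adjusted p = 0.0182) and -1.16 from swn-7 (adjusted p = 0.00433). The call against clf-28 ended without replicate 1 of clf-28 swn-7 or either clf-28 array, with adjusted p between 0.0554 and 0.109.

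The UGT84 group forms glucose esters of hydroxycinnamic acids, among them sinapic acid, and its 3 genes lie side by side. UGT84A1 was below 10 on both double-mutant arrays, at 0.371 and 1.24, against 17.4 and 20.4 in clf-28, 9.32 and 12.9 in swn-7, and 24.5 and 15.0 in wild type. The lowest signals were in clf-28 swn-7, and the level was at least 1.92-fold lower than in wild type (log2 -0.94, SE 0.26, limma adjusted p = 0.0198). That call ended without replicate 1 or 2 of clf-28 swn-7 (adjusted p = 0.114 and 0.106) and without replicate 1 of wild type (log2 -0.59, adjusted p = 0.0741).

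UGT84A4 had 20.7 and 19.97 in clf-28 swn-7, 31.2 and 32.7 in clf-28, 20.3 and 23.8 in swn-7, and 31.8 and 28.5 in wild type. The double mutant and swn-7 shared a low range, and clf-28 and wild type a higher one. The difference from wild type was 1.48-fold (log2 -0.57, SE 0.19, limma adjusted p = 0.0405), and it was not called in any of the 8 fits that left out 1 array (adjusted p 0.0501 to 0.117). UGT84A3 had 73.9 and 91.0 in clf-28 swn-7, against 66.9 and 126 in wild type, with no call (log2 -0.16, adjusted p = 0.695).

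In the UGT74 group the called gene was UGT74D1, which glucosylates auxins. Its signals were 111 and 137 in clf-28 swn-7, 237 and 203 in clf-28, 163 and 166 in swn-7, and 204 and 227 in wild type. Signals were lowest in clf-28 swn-7, and swn-7 lay between it and the other genotypes. The level was 1.74-fold lower than in wild type (log2 -0.80, SE 0.16, limma adjusted p = 0.00543). UGT74B1, which adds the glucose of the glucosinolate core, had 224 and 142 in clf-28 swn-7, 298 and 209 in clf-28, 161 and 194 in swn-7, and 553 and 251 in wild type. Its log2 difference of -1.06 (SE 0.39, limma adjusted p = 0.0587) missed the threshold, with wild-type arrays more than 2-fold apart. It was called lower under 7 of 22 alternatives: without replicate 2 of wild type (log2 -1.63, adjusted p = 0.0117), with a floor of 5, no floor, a constant of 16 added, equal array medians, robust eBayes or the replicate block (adjusted p = 0.0298). UGT74F1, a salicylic acid glucosyltransferase, lay above 10 on only 2 arrays, 1 of clf-28 at 13.5 and 1 of wild type at 11.5, and was not called (log2 -0.10, adjusted p = 0.671).

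The flavonoid enzymes UGT78D1 and UGT78D2 did not differ between clf-28 swn-7 and wild type beyond the spread of their arrays. UGT78D1, which adds rhamnose to flavonols, had 229 and 163 in clf-28 swn-7, 89.8 and 76.9 in clf-28, 64.4 and 45.5 in swn-7, and 202 and 77.9 in wild type. UGT78D2, which adds glucose to flavonols and anthocyanidins, had 155 and 123 in clf-28 swn-7, 102 and 98.6 in clf-28, 97.3 and 72.8 in swn-7, and 170.4 and 116 in wild type. For both genes the clf-28 swn-7 range overlapped the wild-type range and lay above the swn-7 range. The log2 differences from wild type were 0.62 for UGT78D1 (SE 0.43, limma adjusted p = 0.266) and -0.02 for UGT78D2 (SE 0.24, adjusted p = 0.956). Without replicate 1 of wild type, UGT78D1 was called higher (log2 1.31, adjusted p = 0.0186). Against swn-7, both were called higher, with log2 differences of 1.84 for UGT78D1 (SE 0.43, adjusted p = 0.0105) and 0.72 for UGT78D2 (SE 0.24, adjusted p = 0.0438). The UGT78D1 call against swn-7 ended without either double-mutant array or replicate 2 of swn-7 (adjusted p between 0.0670 and 0.133), and the UGT78D2 call in 5 of 8 such fits (adjusted p up to 0.249). UF3GT, listed by RefSeq with the synonym UGT79B1 and known as an anthocyanin glycosyltransferase, was outside the symbol rule. It had 3.67 and 3.43 in clf-28 swn-7, 14.5 and 15.2 in clf-28, 8.13 and 4.84 in swn-7, and 17.6 and 19.3 in wild type, and was lower than wild type (log2 -0.88, SE 0.14, limma adjusted p = 0.00187).

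Sterol glucosylation genes showed no call. UGT80B1, required for normal seed coat pigmentation, had 59.9 and 49.3 in clf-28 swn-7, 54.5 and 40.4 in clf-28, 69.3 and 75.1 in swn-7, and 53.1 and 66.7 in wild type (log2 -0.13, SE 0.23, limma adjusted p = 0.670). SGT, with the RefSeq synonym UGT80A2 and outside the symbol rule, had a log2 difference of -0.14 (adjusted p = 0.488).

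The double mutant was next set against each single mutant. Against clf-28, 8 UGT genes were higher and 8 lower, 42.1% of the 38, beside a background of 45.0% of probe sets called, 23.3% higher and 21.7% lower. The median log2 difference was -0.06 for the UGT genes and 0.09 for all probe sets. Against swn-7, 11 were higher and 6 lower, 44.7%, beside a background of 45.4%, 24.8% higher and 20.6% lower. The medians there were 0.12 for the UGT genes and 0.13 for all. These 2 comparisons and the one with wild type share the double-mutant arrays, so their counts are given side by side. The counts of higher genes include UGT71B8 each time. Apart from it, in all 3 comparisons UGT71B1, UGT72E1, UGT73B4, UGT73C7, UGT76E12 and UGT87A2 were called higher, and UGT71C4, UGT76B1 and UGT88A1 were called lower. The UGT71C4 call ended without replicate 1 of clf-28 swn-7 in both comparisons (adjusted p = 0.0754 and 0.0558), without replicate 1 of clf-28 against clf-28 (0.0927) and without replicate 2 of swn-7 against swn-7 (0.0576). Against swn-7, UGT76B1 was not called without replicate 1 of clf-28 swn-7 (adjusted p = 0.188) or either swn-7 array (0.0540 and 0.145). UGT76B1 had its largest difference against clf-28 (log2 -1.81, SE 0.35, limma adjusted p = 0.00511), which ended without replicate 1 of clf-28 swn-7 (adjusted p = 0.0551). UGT74D1 was lower than in clf-28 (log2 -0.82, adjusted p = 0.00501) and not called against swn-7 (log2 -0.41, adjusted p = 0.0702). UGT85A2 was higher than in both clf-28 (log2 0.90, adjusted p = 0.0363) and swn-7 (log2 1.00, adjusted p = 0.0249), but neither call held without replicate 1 or 2 of clf-28 swn-7 or without an array of the single mutant compared, and the call against clf-28 also ended without either swn-7 array (adjusted p between 0.0612 and 0.221). The counts themselves rested on single arrays: without replicate 1 or 2 of clf-28 9 genes were called against clf-28, and without replicate 2 of swn-7 9 were called against swn-7. The share of all probe sets called fell as well, to 29.0% and 28.8% without those clf-28 arrays and to 33.3% without that swn-7 array.

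Neither single mutant had a called UGT gene against wild type. For clf-28 the background was 0.121% of probe sets called, 0.104% higher and 0.0173% lower, and limma called 0 of the 38 UGT genes. At an unadjusted p below 0.05 there were 5 UGT genes, UGT71C3, UGT73B1, UGT76E11, UGT76E12 and UGT87A2, and 2163 of all 17332 probe sets. All 5 were above wild type. The largest was UGT76E12, at least 4.82-fold above wild type (log2 2.27, SE 0.38, limma adjusted p = 0.119), and the others had log2 differences of 0.71 to 0.75. The median was 0.10 for the UGT genes and 0.00 for all probe sets. Without replicate 2 of wild type, 1 UGT gene, UGT73B1, was called higher in clf-28 (log2 1.07, adjusted p = 0.0419), beside 584 probe sets in all (3.37%).

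For swn-7 the background was 0% of probe sets called, and limma again called 0 UGT genes. At an unadjusted p below 0.05 there were 9 UGT genes and 2117 probe sets in all. UGT72E1 and UGT85A4 were above wild type, and UGT73B5, UGT74B1, UGT74D1, UGT78D1, UGT78D2, UGT84A1 and UGT84A4 were below it. The largest difference was that of UGT78D1 (log2 -1.21, SE 0.43, limma adjusted p = 0.335). The median was -0.06 for the UGT genes and 0.00 for all probe sets. Without replicate 2 of wild type, UGT78D1 (log2 -1.90, adjusted p = 0.0294) and UGT84A1 (log2 -1.11, adjusted p = 0.0493) were called lower in swn-7, beside 806 probe sets called in all (4.65%), a share near that of the UGT genes.

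The interaction compared the double mutant with the sum of the single-mutant differences, as the log2 value of clf-28 swn-7 minus clf-28 minus swn-7 plus wild type. Of the 38 UGT genes 12 passed, 31.6%, with 8 above and 4 below the sum, beside a background of 31.0% of probe sets, 15.4% above and 15.7% below. The median interaction was -0.09 for the UGT genes and 0.12 for all probe sets. With each array scaled to the same median, 5 were above and 4 below, beside 2108 above and 3085 below among all 17332 probe sets. UGT73B4 (log2 3.49, SE 0.44, limma adjusted p = 0.00127) and UGT78D1 (log2 2.43, SE 0.60, adjusted p = 0.0206) were above the sum. UGT73C7 (log2 1.75, adjusted p = 0.00141) and UGT87A2 (log2 1.35, SE 0.24, adjusted p = 0.00562) were above the sum as well. For UGT73B4, UGT73C7 and UGT87A2 the call held in all 8 fits that left out 1 array.

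**Figure D4:**
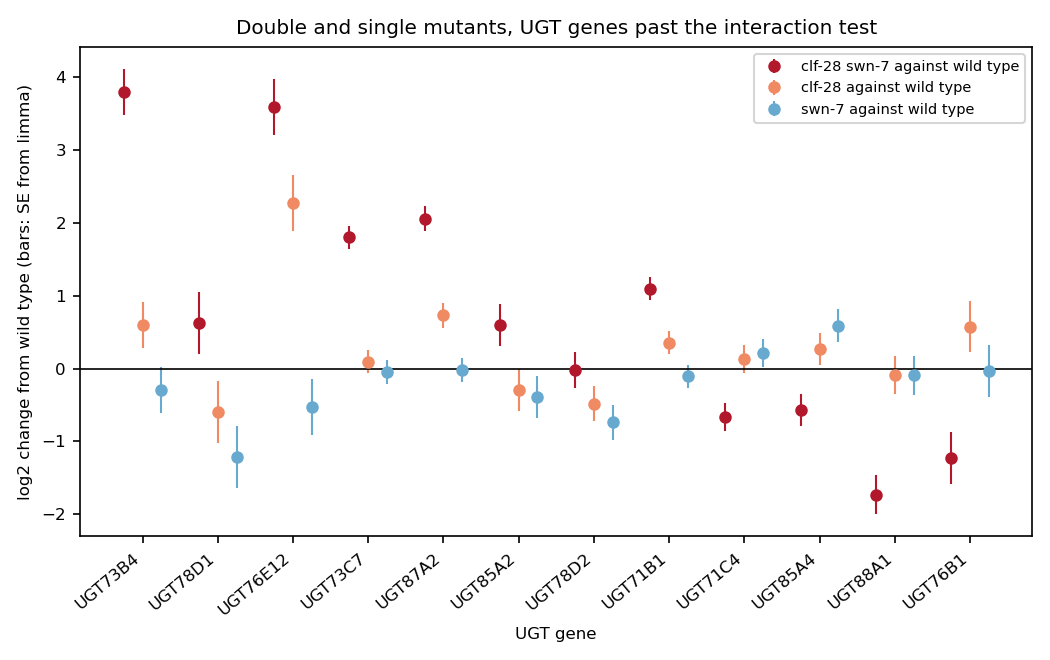
For the 12 UGT genes past the interaction test (x axis), points are log2 differences from wild type of clf-28 swn-7, clf-28 and swn-7, with SE from limma as bars. UGT73B4 stands at 3.79 in clf-28 swn-7, 0.60 in clf-28 and -0.30 in swn-7. UGT78D1, UGT85A2 and UGT78D2 have both single mutants below 0, none of them called.

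The 12 genes had different arrangements of the 4 genotypes. For UGT88A1 (interaction log2 -1.55, SE 0.37, limma adjusted p = 0.0186) and UGT71C4 (-1.01, SE 0.27, adjusted p = 0.0281) the single mutants were near wild type and the double mutant was lower. For UGT76B1 (-1.78, SE 0.50, adjusted p = 0.0324) clf-28 was the highest genotype, and for UGT85A4 (-1.42, SE 0.31, adjusted p = 0.0126) swn-7 was. UGT76E12 (1.84, SE 0.54, adjusted p = 0.0379) and UGT71B1 (0.85, SE 0.22, adjusted p = 0.0250) were above the sum with clf-28 between the double mutant and wild type, and the UGT76E12 value moved to 2.31 (adjusted p = 0.0621) with a floor of 5 and to 3.96 (adjusted p = 0.111) with no floor. UGT78D1, UGT78D2 (1.20, SE 0.34, adjusted p = 0.0337) and UGT85A2 (1.30, SE 0.41, adjusted p = 0.0466) had negative log2 differences of both single mutants from wild type. For these genes no mutant, single or double, was called against wild type. Arrays overlapped those of wild type for clf-28 in UGT78D1 and for both single mutants in UGT85A2. Leaving out 1 array ended most of these calls. UGT85A4 was called in 7 of 8 such fits (ended without replicate 1 of clf-28, adjusted p = 0.0563), UGT71C4, UGT78D1 and UGT88A1 in 3, UGT71B1 and UGT78D2 in 2, and UGT76B1, UGT76E12 and UGT85A2 in 1, with adjusted p up to 0.185.

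Among the 28 UGT genes above 10 on all 8 arrays, the genotype with the highest mean signal was clf-28 swn-7 for 10, clf-28 for 9, swn-7 for 6 and wild type for 3. The lowest mean was in clf-28 swn-7 for 10, in clf-28 for 1, in swn-7 for 10 and in wild type for 7. Many of these neighbouring means differ by less than the spread of their arrays, so the order is a description.

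Position in the genome was not part of the rule. Each UGT gene was paired only with the next of the 38 in the gene order of the RefSeq TAIR10.1 annotation. With at most 1 gene between them, 18 of the 38 genes formed 11 such pairs. None of the 11 pairs was called in the same direction in clf-28 swn-7 against wild type. Genes separated by another of the 38 were not paired. Among these, UGT85A7 and UGT85A5, on either side of UGT85A2, were both higher. UGT84A1 and UGT84A4, on either side of UGT84A3, were both lower. In 8 of the 11 pairs 1 gene was called, and in 2 pairs neither was. In 1 pair the calls were opposite, UGT71C4 lower and UGT71C3 higher. The log2 differences had the same sign in 8 of 11 pairs. Several pairs share a gene, and no share over neighbouring pairs of all genes was computed, so these counts are a description. The widest gap was between UGT73B4 (3.79) and its neighbour UGT73B5 (-0.33), then between UGT76E12 (3.58) and UGT76E11 (0.54).

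Few listed pathway genes were measured under their annotated symbols, 1 each of 23 flavonoid, 11 monolignol and 20 glucosinolate genes. All 3 were lower in clf-28 swn-7 than in wild type, beside 21.5% of all probe sets tested. DFR, which makes leucoanthocyanidins, had 17.9 and 17.4 in clf-28 swn-7, against 34.2 and 47.6 in wild type (log2 -1.19, SE 0.26, limma adjusted p = 0.00798). Its swn-7 signals were 17.2 and 11.3, and the double mutant was not called against swn-7 (log2 0.34, adjusted p = 0.328). DFR was called lower in the double mutant than in clf-28 (adjusted p = 0.0330). HCT, an acyltransferase of the monolignol pathway, had 456 and 558 in clf-28 swn-7, against 685 and 749 in wild type (log2 -0.50, SE 0.15, adjusted p = 0.0266). BCAT4, which starts methionine chain elongation for glucosinolates, had 168 and 211 in clf-28 swn-7, against 1114 and 793 in wild type (log2 -2.32, SE 0.22, adjusted p = 1.66e-04). For these 3 genes the double-mutant and wild-type arrays did not overlap. Against clf-28 and swn-7, BCAT4 was called lower in both comparisons and HCT in neither (limma adjusted p = 0.0607 and 0.0652). Beside BCAT4, UGT74B1 was not called. Beside HCT, UGT72E1 was higher, and UGT72E2 and UGT72E3 were not called. Beside DFR, UGT78D1 and UGT78D2 were not called, and UF3GT, outside the symbol rule, was lower. A link between these pathway genes and the UGT genes was not tested.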

How the data were processed

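RNA of whole seedlings, 4 genotypes with 2 arrays each, was hybridised to ATH1 arrays. The authors deposited array intensities, 1 linear signal per probe set and array; per the submitters' processing notes, MAS5 and GCOS were used, of unstated version. Each array's 2% trimmed mean was 100.0, so no further scaling was done. The 64 control probe sets were left out, signals were floored at 10 and log2 was taken. Probe sets above 10 on at least 2 arrays, 17332 of 22746, were fitted with limma 3.58.1 in R 4.3.3 (lmFit, eBayes with an intensity trend, 1 mean per genotype, 6 contrasts, 4 residual and 3.43 prior degrees of freedom). Tests were two-sided, adjusted by Benjamini-Hochberg over all probe sets. The procedure was tested on simulated data. The number of arrays limits the precision.

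The labels do not state that replicate arrays came from separate cultures or harvests. The p-values therefore measure the spread between these samples alone, and that spread may be technical. Members and gene lists were chosen with earlier results of these data known. Every UGT gene could be named within its number group. Values per array were given for called genes with the largest differences, for the brightest genes and for the extremes of each number group, and list genes by smallest adjusted p. Gene order came from RefSeq. Of 83 listed pathway and tissue genes, 12 were measured under an annotated symbol. Alternatives changed the floor, the scaling, the filter, the eBayes settings, the arrays fitted and a replicate block.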

Additional observations from a re-analysis of the deposited data

Results flagged for a closer look

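For 12 UGT genes the interaction term in limma passed the threshold. This term tests whether the difference made by 1 mutation is the same with and without the other. Only UGT73B4, UGT73C7 and UGT87A2 kept that call under every alternative. UGT76E12 lost it with a floor of 5, a floor of 20 and no floor, among other settings. The double mutant lay above the sum of the single-mutant differences for UGT73B4 (log2 3.49), UGT78D1 (2.43), UGT76E12 (1.84), UGT73C7 (1.75), UGT87A2 (1.35), UGT85A2 (1.30), UGT78D2 (1.20) and UGT71B1 (0.85). It lay below the sum for UGT71C4 (-1.01), UGT85A4 (-1.42), UGT88A1 (-1.55) and UGT76B1 (-1.78). The share of UGT genes, 31.6%, was near that of all probe sets, 31.0%. The double mutant was also the only genotype grown for 12 days, so age and genotype cannot be told apart in these values.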

How the results depend on the processing

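With 2 arrays per genotype the precision was limited. The counts of called UGT genes varied between alternatives, although no called gene changed direction under any alternative. In clf-28 swn-7 against wild type, 16 genes were called, 9 of them (UGT71B1, UGT71C3, UGT72E1, UGT73B4, UGT73C7, UGT74D1, UGT76E12, UGT87A2 and UGT88A1) under every alternative. Of 352 values of the 16 genes under the alternatives, 291 kept the call and 61 lost it. Fitting only the arrays compared gave 9 (34.0% of all probe sets), and leaving out 1 array gave 12 to 16. Against clf-28, where 16 were called, leaving out 1 array gave 9 to 16. Against swn-7, where 17 were called, no filter on dim probe sets gave 11 and leaving out 1 array gave 9 to 17. Of the 12 interactions, 6 were called with a floor of 20 and 5 with no filter, and leaving out 1 array gave 4 to 12 calls, 3 to 11 of them among the 12. Arrays scaled to the same median gave 5 interactions above and 4 below the sum, against 8 and 4, and moved the median interaction of all probe sets from 0.12 to -0.03. The single mutants had 0 calls, and leaving out 1 array gave 0 to 1 in clf-28 and 0 to 2 in swn-7. In the comparisons that include the double mutant, the share of all probe sets called fell under these settings as well. With no filter it was 29.2% against swn-7 and 17.7% in the interaction, and with a floor of 20 it was 25.8% in the interaction. Most fits that left out 1 array also gave a lower share. The causes of these changes were not tested.

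The main fit did not treat same-numbered arrays as pairs. Deviations of same-numbered arrays correlated between -0.0775 and 0.222, which does not settle whether such arrays were handled together. With a replicate block, 15 genes were called against wild type, 16 against clf-28, 16 against swn-7 and 11 in the interaction, and 0 in either single mutant. The shares of all probe sets called were 46.0% against wild type, 44.8% against clf-28, 45.1% against swn-7 and 30.4% in the interaction. Each gene had 1 probe set, so another choice of probe set changed nothing, and the fit of only the arrays compared was not run for the interaction.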
